A study of Arabidopsis thaliana with 4 samples.

Results

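The shoot apical meristem of a seedling holds stem cells, the boundary that separates them from each new leaf, and the founder cells of the leaf itself, and 10 genes that act in these domains are described here across seedling age. They are the homeobox genes STM (AT1G62360), KNAT1 (AT4G08150), KNAT2 (AT1G70510) and KNAT6 (AT1G23380), the receptor kinase gene CLV1 (AT1G75820), the boundary genes CUC1 (AT3G15170) and CUC3 (AT1G76420), and the leaf founder genes AS1 (AT2G37630), AS2 (AT1G65620) and ANT (AT4G37750). They were taken by locus identifier, not by any measured value, from a table of 26784 genes, and all 10 were in it. The RNA came from entire Arabidopsis thaliana seedlings, wild type in the Col-0 background, at 6 and at 2 days post germination (dpg), with 2 libraries at each age. All seedlings were cold-stratified in the dark and then raised on Murashige and Skoog plates with sucrose in a growth room, and the series set out to find transcription factor genes whose expression differs between these ages. Nothing in the labels ties the replicates of an age to separately grown batches of seedlings, and the p-values here therefore cover the variation among these libraries, possibly of technical origin.

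In Arabidopsis the class I KNOX homeodomain factors (STM, KNAT1, KNAT2 and KNAT6) keep meristem cells undetermined and act as dimers with BELL homeodomain partners. CUC factors of the NAC family mark the boundary and promote STM, while the MYB factor AS1 and the LOB-domain factor AS2 form a repressor complex that keeps KNAT1, KNAT2 and KNAT6 silent in leaves. ANT, an AP2 factor, promotes growth of the young organ, and CLV1 perceives the CLV3 peptide that limits the stem cell pool. The microRNA miR164 cleaves CUC1 and CUC2 transcripts but not those of CUC3. CUC2 was not analysed here.

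Sequences were read from the RefSeq genome TAIR10.1. The gene positions given further on are those of the authors' table, whose build is not named in the sources used here. The first pair shows what sets the boundary genes apart. The first line is mature miR164a, encoded at chr2:19520770-19520790 on the plus strand, with its seed in capitals. The second is its best match in CUC1, in the coding part of exon 3 at chr3:5111137-5111157 on the plus strand, with capitals at the bases that pair with the microRNA (G:U pairs not counted).
miR164a: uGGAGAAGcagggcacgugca
CUC1 site: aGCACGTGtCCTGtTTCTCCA
The CUC1 site paired at 18 of 21 bases, whereas the best window of CUC3 paired at 12 of 21 and those of the other 8 genes at 12 to 14 of 21. Mature miR164b-5p has the letters of miR164a.

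The KNOX genes share stretches of coding sequence, which bear on how reads can be divided among them. The longest was an identical run of 41 bases in KNAT2 (chr1:26582032-26582072, plus strand) and KNAT6 (chr1:8297575-8297615, minus strand), whose coding sequences were 78.8% identical where aligned.
KNAT2 and KNAT6 shared run: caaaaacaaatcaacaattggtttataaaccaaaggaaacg
The other KNOX pairs were 59.4 to 63.1% identical, and their longest shared runs were 15 to 20 bases. CUC1 and CUC3 were 59.2% identical, with a longest shared run of 23 bases. The read length is not given in the sources used here, so KNAT2 and KNAT6 are the pair whose counts are least certain to be apart.

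Across the 10 genes, the change between ages was mostly small, with CUC3 the exception. ANT was higher at 6 dpg, KNAT1, CUC3, AS1 and CLV1 were lower, and STM, KNAT2, KNAT6, CUC1 and AS2 did not pass the test. The 5 genes called were 50% of the 10, against 56.6% of the 16160 genes tested, so the share of changed genes was close to that of the whole table. In single directions, 28.3% of all tested genes were higher at 6 dpg and 28.4% were lower. Their log2 fold changes had a median of −0.22, that of all tested genes being −0.00, and the median size of the change without its sign was 0.32 for the 10 genes and 0.55 for all. CUC3 was the 1 gene of the 10 called with a change of 2-fold or more, where 24.1% of all tested genes were. In CPM, counts scaled to library size, 2 genes lay above and 4 below without overlap between ages, or 6 of 10, against 80.6% of all tested genes (40.4% above, 40.2% below). Calls are edgeR quasi-likelihood tests with Benjamini-Hochberg adjusted p under 0.05 over all genes tested, and all 10 genes passed the filter on low counts.

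**Figure D1:**
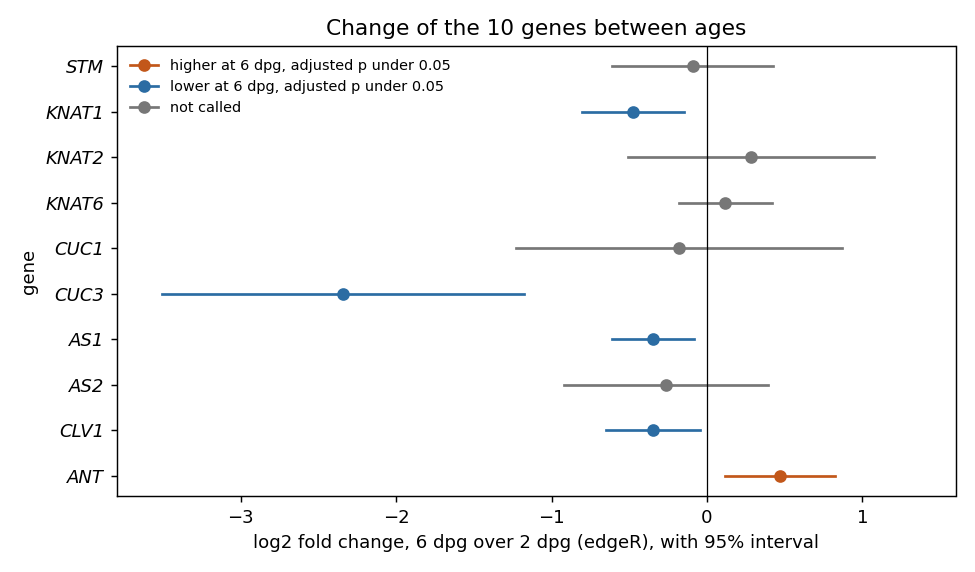
Log2 fold change of each gene, 6 dpg over 2 dpg, from edgeR with its 95% interval (x axis), one gene per line (y axis). ANT lies right of 0, KNAT1, CUC3, AS1 and CLV1 lie left of it, and the intervals of the other 5 genes cross 0.

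Levels per length, in the authors' FPKM (fragments scaled to gene length and library size), spanned a wide range. At 6 dpg the order was AS1, CLV1, KNAT1, KNAT6, ANT, STM, AS2, KNAT2, CUC1 and CUC3, with AS1 at 36.2 ± 2.38 FPKM and CUC3 at 0.169 ± 0.0991 FPKM (SD, n = 2). Neighbours whose libraries overlapped at 6 dpg, and so were not separated, were CLV1 with KNAT1, KNAT1 with KNAT6, and STM with AS2. At 2 dpg the order was AS1, KNAT1, CLV1, KNAT6, ANT, AS2, STM, KNAT2, CUC3 and CUC1, with AS1 at 40.9 ± 3.13 FPKM and CUC1 at 0.470 ± 0.10 FPKM (SD, n = 2). There the overlapping neighbours were KNAT1 with CLV1, ANT with AS2, AS2 with STM, and KNAT2 with CUC3. Among genes with reads, AS1 stood at percentile 87.2 at 6 dpg and 88.4 at 2 dpg, STM at 43.2 at 6 dpg and 36.5 at 2 dpg, and CUC3 at 21.5 at 6 dpg and 23.6 at 2 dpg. FPKM carry no correction for library composition, unlike the CPM used below, which are scaled with TMM factors. The TMM factors were 1.06 and 1.07 at 6 dpg and 0.919 and 0.966 at 2 dpg, so a gene at equal CPM has a higher FPKM at 6 dpg.

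**Figure D2:**
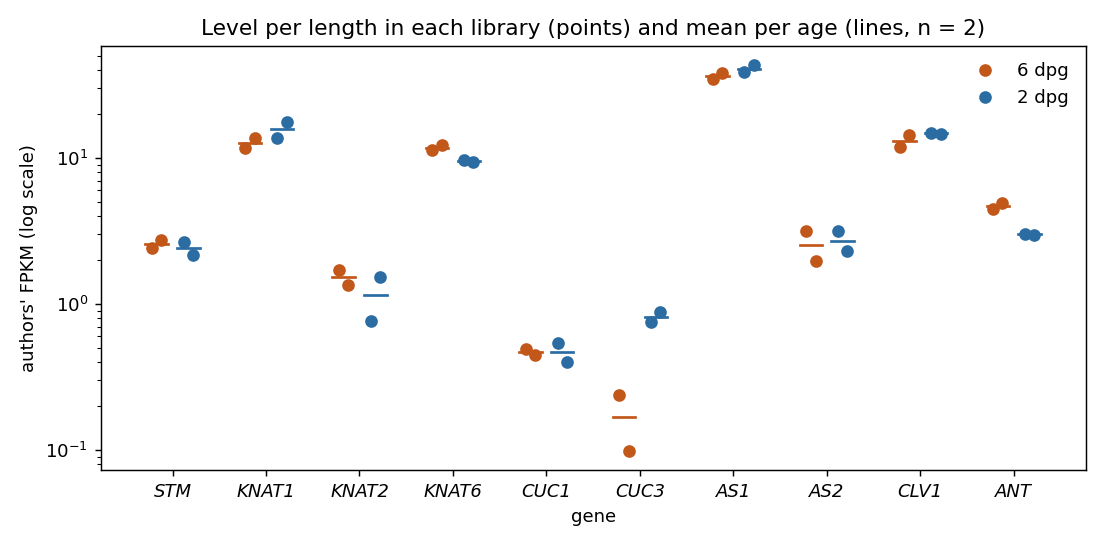
Authors' FPKM on a log scale (y axis) of each gene (x axis) in each of the 4 libraries, as points, with the mean of an age as a line (6 dpg left, 2 dpg right). CUC3 is the gene whose ages lie farthest apart, and AS1 is the highest at both ages.

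Among the class I KNOX genes KNAT1 was lower at 6 dpg, and STM, KNAT2 and KNAT6 did not pass the test. STM lies at 23058582 to 23061722 on the minus strand of chromosome 1 and is needed to form and keep the meristem. It had 3.12 and 3.53 CPM at 6 dpg and 3.97 and 3.07 CPM at 2 dpg. The ages overlapped, with the highest and the lowest library both at 2 dpg. The log2 fold change was −0.09 ± 0.23 (SE; 95% interval −0.61 to 0.43; adjusted p = 0.749), and it was 0.29 when libraries were scaled on ribosomal protein genes. That scaling is an alternative to TMM that moves the median of all genes by 0.35 on the log2 scale, and it bears on every small change given here. It also widened the SE, from 0.23 to 0.35 for STM, 0.15 to 0.25 for KNAT1 and 0.12 to 0.23 for AS1. The estimates moved as well, to −0.14 for KNAT1, −0.0043 for AS1 and 0.0092 for CLV1, the genes whose calls were lost under it. The wider SE alone therefore does not account for those lost calls. Without replicate 1 of 6 dpg STM came to 0.00046 and without replicate 1 of 2 dpg to 0.12.

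KNAT1 (BREVIPEDICELLUS), which shapes internodes and pedicels, lies at 5147700 to 5150966 on the minus strand of chromosome 4. It had 20.01 and 23.5 CPM at 6 dpg and 27.2 and 33.3 CPM at 2 dpg. Both 6 dpg libraries lay below both 2 dpg libraries, although the replicates of each age were some way apart. It fell by 0.47 ± 0.15 on the log2 scale (SE; 95% interval −0.80 to −0.14; adjusted p = 0.0209). The call was lost without replicate 1 of 6 dpg (adjusted p = 0.178), without replicate 2 of 2 dpg (0.0601) and with ribosomal scaling (log2 fold change −0.14, adjusted p = 0.662).

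KNAT6, which acts with STM at the boundary of the embryonic and seedling meristem, lies at 8297291 to 8302651 on the minus strand of chromosome 1. It had 14.2 and 15.2 CPM at 6 dpg and 14.1 and 12.9 CPM at 2 dpg. The 6 dpg libraries were the higher, but the nearest libraries of the 2 ages were closer than the replicates of either. Its log2 fold change was 0.12 ± 0.13 (SE; 95% interval −0.18 to 0.42; adjusted p = 0.465). KNAT2, its closest relative, lies at 26576486 to 26582431 on the plus strand of chromosome 1. It had 53 and 34 reads at 6 dpg and 28 and 43 reads at 2 dpg, or 2.21 and 1.74 CPM at 6 dpg against 1.15 and 2.16 CPM at 2 dpg. The replicates of 2 dpg differed more than the ages did. The log2 fold change of KNAT2 was 0.28 ± 0.35 (SE; 95% interval −0.51 to 1.08; adjusted p = 0.511), and it turned to −0.12 without replicate 1 of 2 dpg.

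Summed over STM, KNAT1, KNAT2 and KNAT6, the level was 27.0 and 30.1 FPKM at 6 dpg and 26.9 and 30.7 FPKM at 2 dpg. On that scale, which has no correction for composition, the ages overlapped. Divided by the TMM factors, the sum was 25.6 and 28.2 FPKM at 6 dpg and 29.3 and 31.8 FPKM at 2 dpg, and in CPM it was 39.5 and 44.0 at 6 dpg and 46.4 and 51.4 at 2 dpg. On both TMM scales the sum was lower at 6 dpg without overlap (exact two-sided permutation test, p = 0.333), so whether the sum differs depends on the scaling. Shares of the sum are taken within a library and do not depend on it. Within that sum KNAT1 held 43.0 and 45.7% at 6 dpg and 50.9 and 57.4% at 2 dpg. KNAT6 held 41.8 and 40.6% at 6 dpg and 36.2 and 30.6% at 2 dpg. KNAT1 and KNAT6 were thus near parity at 6 dpg, whereas KNAT1 led at 2 dpg, and neither share overlapped between ages. With 2 libraries against 2, the exact two-sided permutation test cannot go below p = 0.333, which both shares reached. STM held 8.96 and 9.19% at 6 dpg and 9.96 and 7.07% at 2 dpg, and KNAT2 held 6.31 and 4.51% at 6 dpg and 2.87 and 4.97% at 2 dpg, both overlapping.

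**Figure D3:**
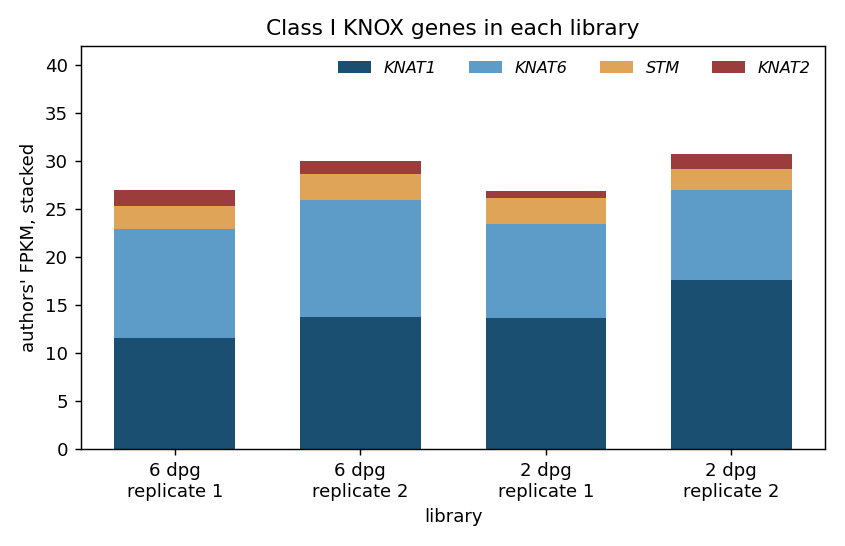
Authors' FPKM of the class I KNOX genes stacked in each library (y axis; x axis: the libraries of 6 dpg, then those of 2 dpg). Without TMM factors the stacks reach 27.0 and 30.1 FPKM at 6 dpg and 26.9 and 30.7 FPKM at 2 dpg, and KNAT1 takes a smaller share of the stack at 6 dpg than at 2 dpg.

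Transcripts of BELL proteins, the partners of KNOX factors, were read for a list of 12 genes, of which 11 were tested. Genes on the part of chromosome 5 that the table lacks could not be included. Of the 11 tested, 9 were higher at 6 dpg, with log2 fold changes of 0.60 to 1.77, ATH1 was lower and BLH11 was not called. Among all tested genes, 28.3% were higher and 28.4% were lower. Transcripts summed over the 12 listed BELL genes alone stood at 133 and 137 FPKM at 6 dpg and 48.0 and 63.9 FPKM at 2 dpg, with no overlap. Divided by the TMM factors, the BELL sum was 126 and 128 FPKM at 6 dpg and 52.2 and 66.1 FPKM at 2 dpg. Set against the class I KNOX sum, that made 4.94 and 4.55 BELL per KNOX at 6 dpg and 1.79 and 2.08 at 2 dpg (exact two-sided permutation test, p = 0.333, the smallest possible).

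BLH2 had the steepest rise among the tested genes of the list, at 35.2 ± 2.71 CPM at 6 dpg and 10.4 ± 3.60 CPM at 2 dpg (SD, n = 2 each; log2 fold change 1.77 ± 0.21 SE, edgeR adjusted p = 1.59e-04). BLH4, which with BLH2 shapes leaf margins, had a log2 fold change of 1.57 ± 0.15 (adjusted p = 5.46e-05), and BLH1 one of 1.49 ± 0.17 (adjusted p = 1.42e-04). PNY (BLH9), a partner of STM and KNAT1 in the shoot apex, had 6.62 and 7.88 CPM at 6 dpg and 4.92 and 4.62 CPM at 2 dpg, a log2 fold change of 0.60 ± 0.18 (adjusted p = 0.0204). ATH1, which acts with STM in the vegetative apex, was the BELL gene that fell, with 6.32 and 5.83 CPM at 6 dpg and 8.52 and 11.4 CPM at 2 dpg. Its log2 fold change was −0.70 ± 0.19 (SE; adjusted p = 0.0113). Over the KNOX and BELL list as a whole, which also holds KNATM, KNAT5 and KNAT7, 10 of 14 tested genes were higher and 1 was lower, 78.6% called beside 56.6% of all genes, with a median log2 fold change of 0.81. With ribosomal scaling 10 were higher and 0 lower, so the ATH1 call was lost, and without replicate 2 of 6 dpg 7 were higher and 1 lower.

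CLV1 and the genes around it gave a mixed picture. CLV1 lies at 28463462 to 28466971 on the minus strand of chromosome 1. It had 38.3 and 46.2 CPM at 6 dpg and 55.7 and 51.6 CPM at 2 dpg. The ages did not overlap, but the 6 dpg replicates differed more than the gap between the ages. CLV1 fell by 0.35 ± 0.13 on the log2 scale (SE; 95% interval −0.65 to −0.05; adjusted p = 0.0494), and with ribosomal scaling the value turned to 0.0092. The call was lost without replicate 1 of 6 dpg (adjusted p = 0.419), replicate 2 of 6 dpg (0.0698) or replicate 1 of 2 dpg (0.10), with DESeq2 size factors (0.0507), with DESeq2's own test (0.0748) and with the replicate number as a block (0.0551). Fold changes in these libraries moved with gene length: the 1475 genes within 1.25 times the length of CLV1 had a median log2 fold change of 0.33. With offsets that remove that trend CLV1 was at −0.73 (adjusted p = 0.00173).

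CLV3, the ligand of CLV1, had 0 and 0 reads at 6 dpg and 4 and 8 reads at 2 dpg. These were too few reads to enter the test. WUS, the stem cell organiser that CLV signalling limits, had 2 and 1 reads at 6 dpg and 0 and 0 reads at 2 dpg, which allows no fold.

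Of the other meristem maintenance genes, 14 of 19 were tested, with 2 higher, 5 lower and a median log2 fold change of −0.29. That was 50% called, again near the 56.6% of all genes. RPK2, another receptor of the CLV pathway, had 28.8 and 31.2 CPM at 6 dpg and 21.2 and 22.6 CPM at 2 dpg (log2 fold change 0.45 ± 0.12, adjusted p = 0.0108), and HAM1, a GRAS factor that works with WUS, had a log2 fold change of 0.42 ± 0.11 (adjusted p = 0.0121). BAM2, a receptor kinase akin to CLV1, fell by 0.70 ± 0.12 on the log2 scale (adjusted p = 9.66e-04), HAM2 by 0.63 ± 0.11 (adjusted p = 0.00155) and CLV2, the receptor-like partner in CLV3 signalling, by 0.56 ± 0.19 (adjusted p = 0.0315). HAM1 and HAM2, close relatives, therefore moved in opposite directions under TMM. The counts became 1 higher and 2 lower without replicate 1 of 6 dpg, 0 higher and 4 lower without replicate 2 of 6 dpg, 2 higher and 0 lower with ribosomal scaling, and 0 higher and 6 lower with length-adjusted offsets, where neither RPK2 nor HAM1 was called higher.

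CUC3, at 28672029 to 28673934 on the minus strand of chromosome 1, had the largest change of the 10 genes. It had 6 and 2 reads at 6 dpg and 22 and 20 reads at 2 dpg, or 0.250 and 0.102 CPM at 6 dpg against 0.901 and 1.01 CPM at 2 dpg. Both 6 dpg libraries were far below both 2 dpg libraries, and the lower of them was under the 0.154 CPM that 3 counts are worth there. The log2 fold change was −2.34 ± 0.51 (SE; 95% interval −3.51 to −1.18; adjusted p = 0.00432). In reads, 8 at 6 dpg against 42 at 2 dpg made it 5.16-fold lower (exact 95% interval 2.39 to 12.7, counting error only).

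CUC3 was called in all 11 alternatives in which it was tested, with log2 fold changes of −3.14 to −1.90 and adjusted p of 0.00115 to 0.0386. A filter at a mean count of 20 removed it, together with CUC1. In whole seedlings, fewer boundary cells and less RNA per boundary cell cannot be told apart, and the same holds for every gene here.

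CUC1 lies at 5109883 to 5111447 on the plus strand of chromosome 3. It had 11 and 8 reads at 6 dpg and 14 and 8 reads at 2 dpg, or 0.458 and 0.409 CPM at 6 dpg against 0.574 and 0.402 CPM at 2 dpg. The ages overlapped at a level that leaves a wide interval. Its log2 fold change was −0.18 ± 0.46 (SE; 95% interval −1.23 to 0.87; adjusted p = 0.759), and 0.20 with ribosomal scaling, and changes within that interval were not detectable at this depth. The ratio of CUC3 to CUC1, in FPKM, was 0.481 and 0.221 at 6 dpg and 1.39 and 2.21 at 2 dpg, without overlap (exact two-sided permutation test, p = 0.333, the smallest possible). In FPKM, CUC1 was thus the higher of the pair at 6 dpg and CUC3 at 2 dpg. That order rests on few reads, such as 6 and 2 of CUC3 at 6 dpg, and the counting error of the ratio was not estimated. The precursor locus of miR164b had 10 and 3 reads at 6 dpg and 2 and 0 reads at 2 dpg, a ratio of 6.61 (exact 95% interval 1.496 to 60.3, counting error only). The mature microRNA itself was not measured. No other miR164 locus, that of miR164a included, was read here.

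Of the other boundary genes, 9 of 10 were tested and 0 were called by edgeR, beside 56.6% of all tested genes. There were 0 at an unadjusted p under 0.05 and 0 called by DESeq2. With length-adjusted offsets 1 was lower. BOP1, which patterns the leaf base, had 1.04 and 0.665 CPM at 6 dpg and 1.02 and 1.61 CPM at 2 dpg (log2 fold change −0.59 ± 0.39, adjusted p = 0.230), and its relative BOP2 had 11.2 and 13.3 CPM at 6 dpg and 15.8 and 14.6 CPM at 2 dpg (−0.32 ± 0.14, adjusted p = 0.0817). LAS, a GRAS factor of axillary meristems, had 2.12 and 1.54 CPM at 6 dpg and 1.598 and 1.51 CPM at 2 dpg (0.24 ± 0.29, adjusted p = 0.503). CUC3 therefore stood beside boundary genes that did not pass the test, though a difference between CUC3 and these was not tested. Several of them had few reads, with an SE of up to 0.44 (LOF1), so not passing does not mean unchanged.

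KNOX and BELL dimers bind DNA at TGAC cores, TGACAG among them, and the windows of the boundary pair are shown because STM acts on CUC genes. The windows are the 250 bases before the RefSeq gene start, CUC1 at chr3:5109532-5109781 on the plus strand and CUC3 at chr1:28674046-28674295 on the minus strand. Capitals mark CTGTCA, which is TGACAG on the other strand.
CUC1 upstream: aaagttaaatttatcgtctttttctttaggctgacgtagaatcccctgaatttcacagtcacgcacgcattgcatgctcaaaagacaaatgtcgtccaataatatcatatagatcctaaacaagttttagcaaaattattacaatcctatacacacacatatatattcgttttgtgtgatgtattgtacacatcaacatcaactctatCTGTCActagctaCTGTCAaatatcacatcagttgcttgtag
CUC3 upstream: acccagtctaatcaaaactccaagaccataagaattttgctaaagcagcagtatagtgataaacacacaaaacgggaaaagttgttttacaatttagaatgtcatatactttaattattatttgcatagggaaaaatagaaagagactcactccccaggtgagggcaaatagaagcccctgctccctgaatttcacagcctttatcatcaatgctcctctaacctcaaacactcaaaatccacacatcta
TGACAG on either strand occurred 2 times in the CUC1 window, 1 time each in those of AS1 and ANT, and in none of the other 7. Windows of the same length held it in 1609 of 27443 coding genes, or 5.863%. These matches describe letters in the windows.

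The leaf founder genes moved in different directions. AS1, at 15781615 to 15783433 on the minus strand of chromosome 2, was the most abundant of the 10 genes at both ages. It had 48.6 and 52.9 CPM at 6 dpg and 62.7 and 66.4 CPM at 2 dpg. The ages were apart by more than the replicates of either. AS1 fell by 0.35 ± 0.12 on the log2 scale (SE; 95% interval −0.61 to −0.08; adjusted p = 0.0311). The call was lost without replicate 1 of 6 dpg (adjusted p = 0.281) or replicate 2 of 6 dpg (0.125), and with ribosomal scaling the value was −0.00 (adjusted p = 0.990). AS1 overlaps the gene AT2G37620 on the opposite strand over 14.7% of its RefSeq span. The library kit does not mark strand, so reads there cannot be told apart. By the gene spans of the authors' table, AS1 overlapped no other gene.

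AS2, the partner of AS1, lies at 24398143 to 24400969 on the plus strand of chromosome 1. It had 3.70 and 2.30 CPM at 6 dpg and 4.26 and 2.97 CPM at 2 dpg. Replicate 1 was above replicate 2 at both ages, by more than the ages differed. The log2 fold change was −0.26 ± 0.29 (SE; 95% interval −0.92 to 0.39; adjusted p = 0.464), and it turned to 0.12 with ribosomal scaling and to 0.032 without replicate 2 of 6 dpg and 0.035 without replicate 1 of 2 dpg. Per length, AS1 outnumbered AS2 by 10.99 and 19.2 times at 6 dpg and by 12.3 and 18.8 times at 2 dpg. AS1 stood to its target KNAT1 at 2.97 and 2.75 at 6 dpg and 2.82 and 2.44 at 2 dpg, in FPKM, and the ratio overlapped between ages.

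ANT, at 17739514 to 17742401 on the plus strand of chromosome 4, was the gene that rose. It had 9.15 and 9.93 CPM at 6 dpg and 7.09 and 6.63 CPM at 2 dpg. Both 6 dpg libraries were above both 2 dpg libraries. Its log2 fold change was 0.47 ± 0.16 (SE; 95% interval 0.12 to 0.83; adjusted p = 0.0286), and with ribosomal scaling 0.83. The call was lost with DESeq2's own test (adjusted p = 0.108), with length-adjusted offsets (0.0771), and without replicate 1 of 6 dpg (0.0738), replicate 2 of 6 dpg (0.150) or replicate 2 of 2 dpg (0.0661). Against STM, in FPKM, ANT stood at 1.86 and 1.78 at 6 dpg and 1.13 and 1.37 at 2 dpg.

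Of the other genes of leaf founding, outgrowth and polarity, 20 of 21 were tested, with 3 higher, 6 lower and a median log2 fold change of −0.10. That was 45% called, beside 56.6% of all genes, and with length-adjusted offsets 5 were higher and 8 lower. NUB, which promotes growth of the upper leaf side with JAG, had 14 and 11 reads at 6 dpg and 2 and 2 reads at 2 dpg (log2 fold change 2.59 ± 0.60, adjusted p = 0.00565). JAG had 13 and 19 reads at 6 dpg and 6 and 7 reads at 2 dpg, and did not pass the test (1.32 ± 0.51, adjusted p = 0.0536). ARL, which promotes cell expansion, had a log2 fold change of 0.57 ± 0.12 (adjusted p = 0.00429).

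Of the YABBY genes, which act on the lower leaf side, YAB3 was higher, FIL was lower, and YAB2 (log2 fold change −0.16, adjusted p = 0.452) and YAB5 (0.20, adjusted p = 0.255) were not called. YAB3 had 60.8 and 57.6 CPM at 6 dpg and 42.3 and 43.2 CPM at 2 dpg (0.47 ± 0.11, adjusted p = 0.00733), and FIL had 22.1 and 18.3 CPM at 6 dpg and 32.9 and 37.2 CPM at 2 dpg (−0.79 ± 0.14, adjusted p = 0.00131). The D-type cyclin CYCD3;3 fell by 0.76 ± 0.16 on the log2 scale (adjusted p = 0.00400) and ARF3, an auxin response factor of the lower side, by 0.74 ± 0.12 (adjusted p = 9.32e-04). PHB, a homeodomain leucine zipper factor of the upper side, had 77.2 and 75.6 CPM at 6 dpg and 76.5 and 84.4 CPM at 2 dpg (−0.07 ± 0.12, adjusted p = 0.603). The counts of the list became 0 higher and 5 lower without replicate 1 of 6 dpg, and 4 higher and 0 lower with ribosomal scaling.

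**Figure D4:**
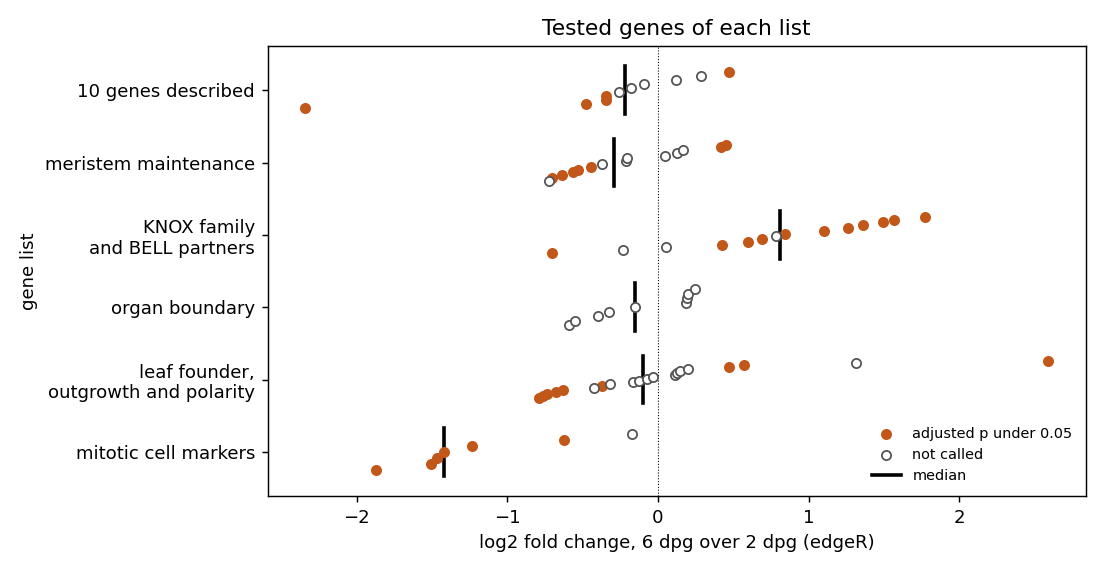
Log2 fold change, 6 dpg over 2 dpg (x axis), of each tested gene of each list (y axis), filled where the edgeR adjusted p is under 0.05, with the list's median as a bar. The KNOX and BELL list has its median at 0.81, the other lists of shoot genes lie around 0, and the mitotic markers have theirs at −1.42.

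Markers of tissues and cell states were read in the same libraries, and none of those in the table was without reads in all 4. Over all tested genes, 56.6% were called and 28.4% were called lower. Among tested markers, 85.7% of mitotic, 80% of green tissue, 50% of root and 42.9% of ribosomal genes were called, all lower. The root and ribosomal shares were thus below the 56.6% called in either direction but above the 28.4% called lower. Of 7 genes of mitotic cells, 6 were lower at 6 dpg, at a summed 43.4 and 41.6 CPM against 96.6 and 95.04 CPM at 2 dpg. Of 5 green tissue genes, 4 were lower, at 25876 and 24606 CPM at 6 dpg and 44841 and 43196 CPM at 2 dpg. Of 6 tested root genes, 3 were lower, at 72.6 and 67.9 CPM at 6 dpg and 176 and 156 CPM at 2 dpg. The 14 cytosolic ribosomal protein genes, with 6 lower, summed to 4193 and 4143 CPM at 6 dpg and 6079 and 4696 CPM at 2 dpg. Their median log2 fold change was −0.35, but −0.16 without replicate 1 of 2 dpg and −0.52 without replicate 2 of 2 dpg. The ribosomal scaling rests on these genes. The 10 genes described here summed to 140 and 156 CPM at 6 dpg and 178 and 180 CPM at 2 dpg. Of 7 seed reserve genes 1 was tested and was lower, and the list summed to 0.166 and 0.409 CPM at 6 dpg and 1.31 and 6.38 CPM at 2 dpg. These marker sums are RNA levels, and whether they follow tissue proportions was not tested. Nor was the part of tissue proportions in the changes of CUC3, KNAT1, AS1, CLV1 and ANT.

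By the authors' deposited table, KNAT1 (adjusted p = 0.0445) and CUC3 (adjusted p = 0.0189) were lower at 6 dpg and the other 8 genes were not called, where 32.8% of the 22473 genes with reads were. The authors' deposited table gave CLV1 an adjusted p of 0.0916, AS1 one of 0.103 and ANT one of 0.118.

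Of all 16160 tested genes, those whose FPKM over the 4 libraries were nearest to STM, by Euclidean distance on log2(FPKM + 0.1), were AT1G77400 (distance 0.130), AT1G03940 (0.134) and AT2G31290 (0.168).

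**Figure D5:**
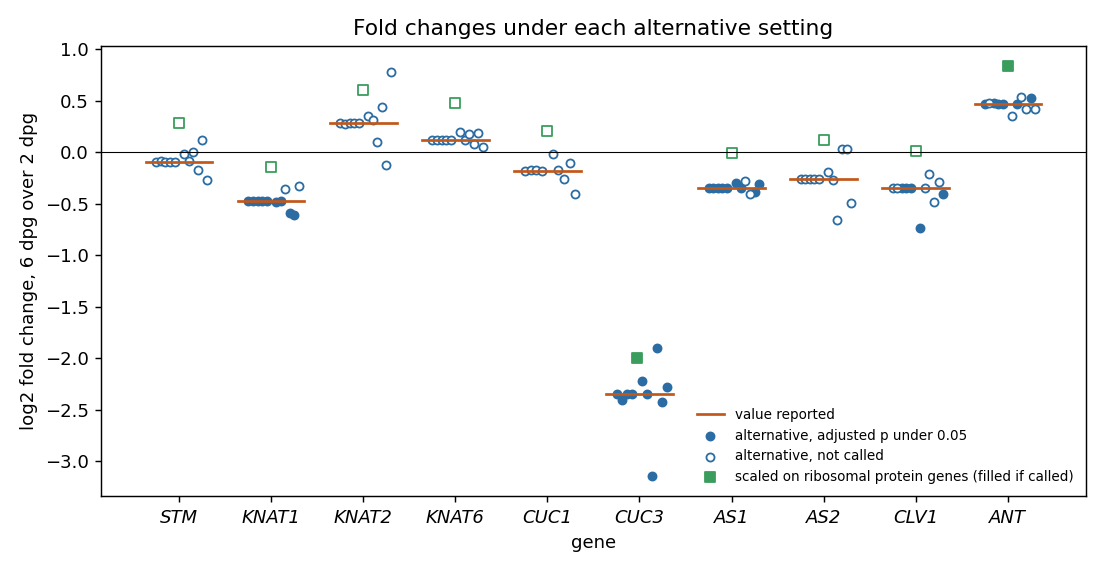
Log2 fold change, 6 dpg over 2 dpg (y axis), of each gene (x axis) as reported (bar) and under each alternative (points, filled where the adjusted p is under 0.05; squares, scaling on ribosomal protein genes). CUC3 is filled throughout, and KNAT1, AS1, CLV1 and ANT mix filled and open points. STM, KNAT2, CUC1, AS2 and CLV1 have points on both sides of 0, CLV1 only through its square at 0.0092.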

How the data were processed

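RNA-seq of 4 libraries of whole seedlings, 2 at each of 6 and 2 dpg, was used. Per the labels' protocols, RNA was isolated with TRIzol and made into libraries with NEBNext Ultra, which keeps no strand. Per the submitters' processing notes, the tools were DESeq 1.18.0, HTSeq 0.6.1, TopHat2 2.0.12, Bowtie2 2.2.3 and CASAVA 1.8, without their roles. Neither the genome build nor the annotation is given in the sources used here. The authors deposited raw read counts per gene, FPKM per library and, from their own test, p-values. Of the value columns, 2 named for other days were left aside.

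The table covers chromosomes 1 to 4 and chromosome 5 to position 3070933. Reads on it were 14845619 to 21217252 per library. Library totals of 18330153 to 26570983 were recovered from count, FPKM and gene length, as 66.7 to 67.8% of genes with over 200 reads gave the same total within 0.01%. CPM use these totals times the TMM factors, and a count of 3 is then worth 0.123 to 0.154 CPM. Intervals on reads and floors cover counting error only.

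The ages were tested against each other in R 4.3.3 with edgeR 4.0.16 (quasi-likelihood test with age as the only term, TMM factors, filterByExpr at 10 counts). The filter removed 10624 genes and left 16160. The fit was also run on simulated counts with a common dispersion and far fewer changed genes than were called here. That run does not show the error rates for these data. The SE of a log2 fold change is its size divided by the square root of the F statistic. DESeq2 1.42.0 was an alternative, as were other filters, totals and scalings, length-adjusted offsets, a replicate block and leaving out each library. The members, lists and naming rule were chosen with earlier results of these data known. Per list, the text names up to 3 called genes in each direction, those with the largest changes, with WUS, CLV3, BOP1, BOP2, LAS, PHB, FIL and JAG as values. MIR164B and PNY were added after their values were seen.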

Additional observations from a re-analysis of the deposited data

How the results depend on the processing

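Of the 10 genes, 5 were called as reported, 1 higher and 4 lower. The DESeq2 Wald test called 3, with 0 higher, and ribosomal scaling called 2, with 1 lower. Of all 16160 genes tested, the Wald test called 7712 and ribosomal scaling 7703. With length-adjusted offsets 0 were higher, beside 4581 of all genes tested, ANT having an edgeR adjusted p of 0.0771 there. Leaving out each library gave 1 to 4 called, 0 to 1 higher and 1 to 3 lower, with the most lost without replicate 1 of 6 dpg. Ribosomal scaling turned STM to 0.29, CUC1 to 0.20, AS2 to 0.12 and CLV1 to 0.0092 on the log2 scale, and lowered the count of genes called lower over the whole table to 1954, with 74.6% of calls higher. Leaving out each library gave STM −0.27 to 0.12, KNAT2 −0.12 to 0.78 and AS2 −0.66 to 0.035. The cause was not tested. Over the whole table, leaving out each library gave 6951 to 9497 genes called, 3470 to 4748 higher and 3474 to 4749 lower. Of the other lists, markers aside, 27 of 57 tested genes were called, 15 higher and 12 lower. That was 47.4%, beside 56.6% of all tested genes. Ribosomal scaling gave 16, with 0 lower, and leaving out each library 17 to 26, with 9 to 14 higher and 8 to 12 lower.

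With the replicate number as a block, 9099 genes and 4 of the 10 were called, CLV1 being lost. Same-numbered libraries did not deviate together (Pearson r across genes −0.03). This value cannot show whether they were grown or prepared together, which the labels do not say. Counts of the replicates differed beyond sampling noise (chi-square of 6.22 per degree of freedom for the 6 dpg pair and 17.2 for the 2 dpg pair). Without replicate 1 of 2 dpg CUC1 did not pass the low-count filter. Depth limits CUC1, CUC3, WUS and CLV3, which have few reads.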
